A study of Mus musculus with 11 samples.

Results

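The genes described here encode the enzymes of the urea cycle and other proteins that mark the periportal side of the liver lobule. They were selected by name, as a set of 10 genes. The enzymes of the cycle are *Cps1*, *Otc*, *Ass1*, *Asl* and *Arg1*, and *Slc25a15* encodes the carrier that links its mitochondrial and cytosolic steps. *Hal*, *Gls2* and *Sds* encode periportal enzymes of amino acid breakdown, and *Cdh1* encodes E-cadherin. Of the 10 genes, 9 were in the table of 13669 genes, and the same 9 were among the 13334 genes tested. *Sds* was not analysed here.

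Their RNA was measured in the livers of 11 male C57BL/6J mice of WT genotype on regular chow, each treated with a recombinant adeno-associated virus (rAAV). In the 6 AAV-TuD mice the virus carried a tough decoy (TuD), a hairpin RNA with a binding site for *miR-379* and another for *miR-541*. In the 5 AAV-NC mice it carried a negative control sequence, so that both groups had been exposed to the virus. The promoter of the virus is liver-specific and is meant to limit the decoy to hepatocytes, while the libraries were made from whole liver. The paper describes a fast of several hours before tissue collection, and the age of each animal and its time after injection are not given in the sources used here. The miRNAs themselves were not measured in these libraries, which were made from 500 ng of RNA and read the 3′ end of polyadenylated transcripts.

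The urea cycle turns the ammonia released by amino acid breakdown into urea. CPS1 and OTC act in the mitochondria, where they make carbamoyl phosphate and join it to ornithine as citrulline. ASS1, ASL and ARG1 act in the cytosol, where citrulline is joined to aspartate, the product is split into arginine and fumarate, and arginine is cleaved to urea and ornithine, which the carrier ORC1 (*Slc25a15*) returns to the mitochondria. These steps are strongest in periportal hepatocytes, while the glutamine synthetase gene *Glul* is confined to the last hepatocytes around the central vein, which take up the ammonia that has escaped the cycle. Glucagon, glucocorticoids and amino acid load are known to raise the enzymes of the cycle.

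The decoy binds the mature miRNAs below, shown because their seed is the stretch that pairs with target transcripts. The sequences are those of RefSeq for GRCm38.p6, on the plus strand of chromosome 12, from 109709065 to 109709085 for *miR-379-5p* and from 109742422 to 109742446 for *miR-541-5p*. They are written from 5′ to 3′ with the seed, bases 2 to 8, in capitals.
mmu-miR-379-5p: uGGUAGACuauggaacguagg
mmu-miR-541-5p: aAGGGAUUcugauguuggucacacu

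The paper reports that several other miRNAs of the same cluster, and the host transcripts *lncMGC* and *Mirg*, were also lower with this decoy. Of the cluster, only the seeds of *miR-379-5p* and *miR-541-5p* were searched, and matches to the other miRNAs were not tested. The reverse complements of these seeds, GTCTACC and AATCCCT, were looked for on the sense strand of 3′ UTRs. For each gene the longest 3′ UTR in GENCODE M21 was taken. None of the 9 genes held either match there, against 5.73% of the 10934 tested genes with an annotated 3′ UTR for *miR-379-5p* and 9.51% for *miR-541-5p*. In the longest coding sequences, which hold such a match in 8.29% and 8.02% of 10989 tested genes, *Cdh1* had 1 for *miR-379-5p* and *Hal* had 1 for *miR-541-5p*. Both are shown with the bases around them, since they are the only matches found among the 9 genes in these windows. That of *Cdh1* begins at base 336 of the coding sequence, in exon 3 of 16, at chr8:106649167-106649173 of GRCm38. That of *Hal* begins at base 531, in exon 6 of 20, at chr10:93491145-93491151. Both genes lie on the plus strand, and capitals mark the bases that match the seed.
Cdh1: catagggagctGTCTACCaaagtgacgct
Hal: gctagaactgtAATCCCTgccaataagct
A match of letters was all that was examined, and binding was not measured.

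The libraries held between 8148531 and 12043959 reads counted to genes. Transcripts of 40 *Mup* genes, which encode major urinary proteins, took 40.2% of the reads of AAV-NC 7, 32.3% of AAV-TuD 3, 29.6% of AAV-TuD 5 and between 8.58% and 19.5% of the other livers. To limit the effect of such uneven shares, libraries were scaled by TMM in edgeR, and levels are given as CPM, the reads of a gene relative to all reads of the scaled library. Since each transcript gives reads from its 3′ end only, CPM of different genes can be compared without a correction for length. Scaled by library size alone, the whole table had a median log2 fold change of 0.23 in place of 0.00, and the directions of genes with small changes depend on this choice. Hepatocyte markers were high in every library, and their summed level lay between 44519 and 51003 CPM with AAV-NC and between 53330 and 61084 with AAV-TuD. None of the 11 tested passed the threshold in edgeR, 5 had an unadjusted p under 0.05, and DESeq2 called 5 (3 higher and 2 lower). In RNA of whole liver, fewer cells of a type and less RNA per cell cannot be told apart.

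Transcripts of the 5 cycle enzymes made up 0.227% to 0.382% of all reads with AAV-NC (median 0.293%) and 0.286% to 0.399% with AAV-TuD (median 0.363%). Outside *Mup* genes the shares were 0.362% to 0.447% (median 0.380%) and 0.403% to 0.439% (median 0.430%). These shares are not scaled by TMM, and their medians were higher with AAV-TuD, unlike the TMM estimates of most of the enzymes given below. *Ass1* was the most abundant of the 9 genes in all 11 livers, at rank 85 of the 13334 genes tested. *Cps1* and *Arg1* followed it with levels that overlapped within each group. *Hal* and *Otc* came next and also overlapped, as did *Asl* and *Slc25a15* below them. *Cdh1* lay under these, and *Gls2* was the least abundant, with only 103 to 264 reads per liver. The enzymes of the mitochondrial matrix thus differed in level, since *Cps1* had 3.59 times the reads of *Otc* in AAV-NC livers and 3.60 times in AAV-TuD livers (geometric means). Apart from *Gls2*, all of the genes were within the most abundant 10% of those tested.

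**Figure D1:**
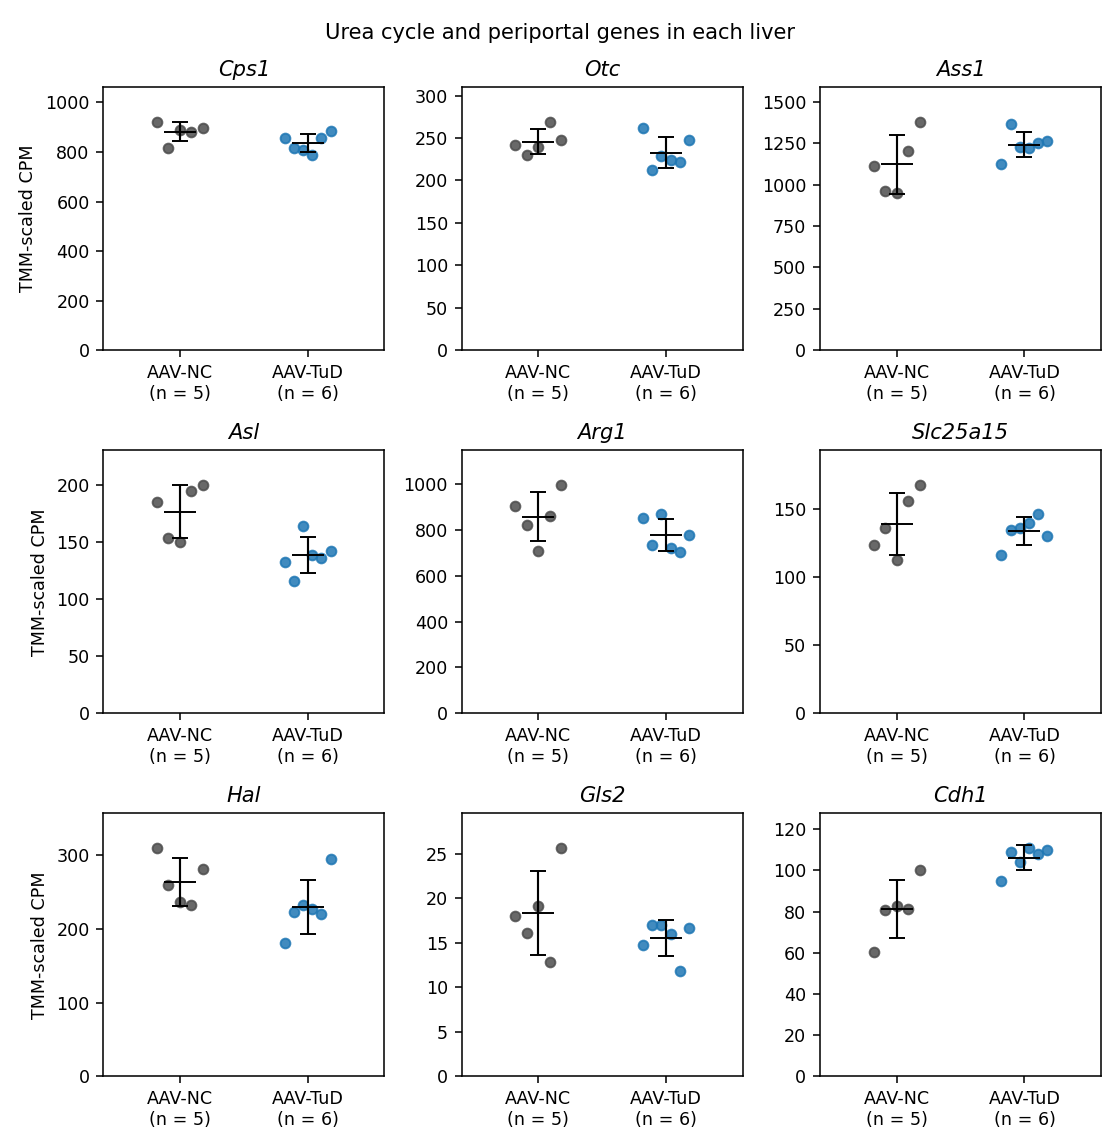
Level of each of the 9 genes in each liver, in TMM-scaled CPM on a vertical axis that starts at 0. Points are livers, with 5 AAV-NC in grey and 6 AAV-TuD in blue, and bars are the mean ± SD. *Asl* was lower with AAV-TuD (177 against 138 CPM on average) and *Cdh1* higher (81.1 against 106), and the other genes did not pass the test.

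Of the 9 genes, *Asl* was lower and *Cdh1* higher with AAV-TuD at an adjusted p under 0.05 in the quasi-likelihood test of edgeR, and the other 7 did not pass it. This is 22.2% of the 9 genes. Among all genes tested 11.6% were called, 7.24% as higher and 4.33% as lower, and of the most abundant 10% of genes 22.3% were called. Median log2 fold changes were -0.08 for the 9 genes, -0.13 for the most abundant 10% of genes and 0.00 for all genes tested. With library size alone the estimates of *Cps1*, *Otc*, *Arg1*, *Hal* and *Slc25a15* were above 0 and *Asl* was not called, while *Cdh1* was. The CPM of the groups overlapped for each of the 9 genes, whereas they did not overlap for 7.39% of all genes tested.

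**Figure D2:**
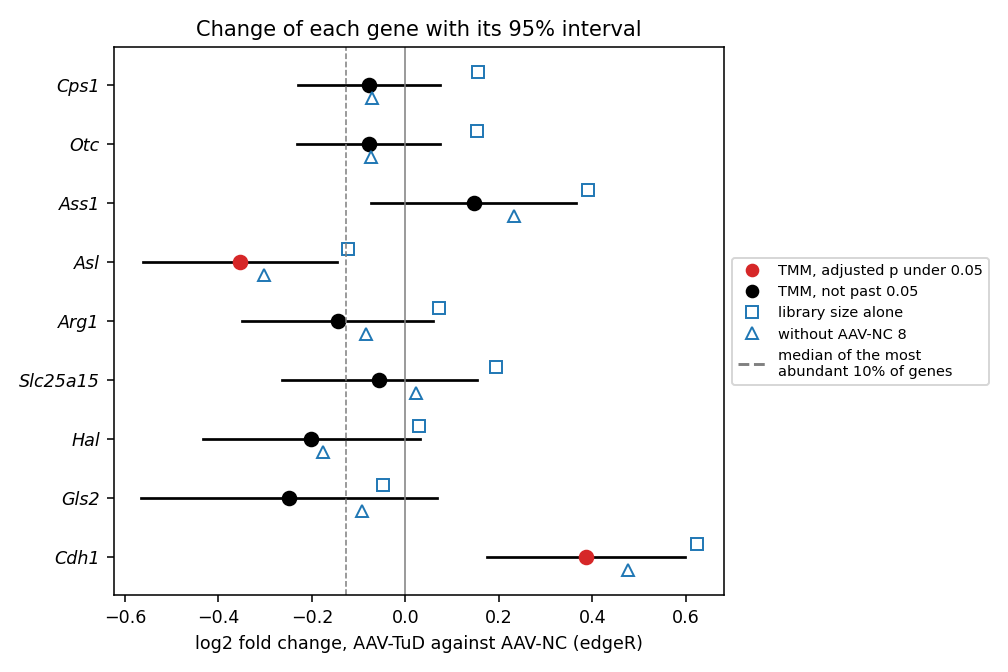
Log2 fold change of each gene, AAV-TuD against AAV-NC, from edgeR. Circles with lines are the estimate with TMM scaling and its 95% interval, squares the estimate with library size alone and triangles that without AAV-NC 8, and the dashed line is the median of the most abundant 10% of genes (-0.13). The intervals of *Asl* (-0.56 to -0.15) and *Cdh1* (0.17 to 0.60) leave out 0, and the squares lie to the right of the circles for every gene.

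The first step of the cycle was level across the livers. *Cps1* (chromosome 1 of GRCm38, from 67123026 to 67231259), which encodes the carbamoyl phosphate synthetase that sets the entry of ammonia, had 923, 818, 890.4, 882 and 896 CPM in AAV-NC 1, 2, 6, 7 and 8. In the 6 AAV-TuD livers it had between 789 and 886 CPM with a median of 837. AAV-NC 2 was low, the other AAV-NC livers lay at 882 CPM or more, and AAV-TuD 11 reached that level, so that the groups overlapped. The means were 882 ± 38.8 CPM (SD, n = 5) and 835 ± 37.1 CPM (SD, n = 6). This gave a log2 fold change of -0.08 (standard error, SE, 0.07), with a 95% interval from -0.23 to 0.07 that covers a change between -14.7% and 5.28%, and it did not pass the threshold (adjusted p = 0.539, edgeR). This was the tightest of the 9 genes, with a coefficient of variation of 4.40% in AAV-NC and 4.45% in AAV-TuD livers.

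*Otc* (chromosome X, from 10252305 to 10321024), the ornithine transcarbamylase that makes citrulline, had a coefficient of variation of 6.01% in AAV-NC and 8.002% in AAV-TuD livers. It had 242, 229.7, 239.8, 269 and 248 CPM in AAV-NC 1, 2, 6, 7 and 8, and between 212 and 262 CPM with a median of 226 in the AAV-TuD livers. AAV-NC 7 was the highest liver and AAV-TuD 4 the lowest, with overlap between the groups. Its log2 fold change was -0.08 (SE 0.07, 95% interval -0.23 to 0.07, adjusted p = 0.537 by edgeR). The 2 enzymes of the matrix therefore had the same estimate and nearly the same interval.

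The cytosolic steps did not share 1 direction. *Ass1* (chromosome 2, from 31470207 to 31520672), the argininosuccinate synthetase, had 1116, 964, 951, 1201 and 1382 CPM in AAV-NC 1, 2, 6, 7 and 8. It had 1123, 1365, 1230.4, 1222, 1254 and 1264 CPM in AAV-TuD 3, 4, 5, 9, 10 and 11. AAV-NC 1, 2 and 6 lay below all AAV-TuD livers, AAV-NC 1 only just, and AAV-NC 8 above all of them. The mean was 1123 ± 179 CPM (SD, n = 5) with AAV-NC and 1243 ± 77.9 CPM (SD, n = 6) with AAV-TuD, a log2 fold change of 0.15 (SE 0.10, 95% interval -0.07 to 0.37, adjusted p = 0.401 by edgeR). It was 0.23 without AAV-NC 8 (adjusted p = 0.141 by edgeR), 0.10 without AAV-NC 2 (adjusted p = 0.633) and 0.09 without AAV-NC 6 (adjusted p = 0.652). *Gm5424*, whose transcript is 99.5% identical to that of *Ass1* over 1240 bases, had 1610 reads in all livers against 132338 for *Ass1*, and how reads that match both were counted is not given in the sources used here.

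*Asl* (chromosome 5, from 130011258 to 130029247, minus strand) encodes the argininosuccinate lyase, which acts on the product of ASS1. It had 185, 154, 149.7, 195 and 201 CPM in AAV-NC 1, 2, 6, 7 and 8, and 133, 116, 164, 139, 136 and 143 CPM in AAV-TuD 3, 4, 5, 9, 10 and 11. Only AAV-TuD 5 reached the values of AAV-NC livers, and the other 5 AAV-TuD livers were below it. Mean expression was 177 ± 23.6 CPM (SD, n = 5) with AAV-NC and 138 ± 15.7 CPM (SD, n = 6) with AAV-TuD. *Asl* fell with a log2 fold change of -0.35 (SE 0.10, adjusted p = 0.0289 by edgeR), a change of -21.7% with a 95% interval from -32.2% to -9.60%. The call did not hold for each set of livers. It was lost without AAV-NC 1, 7 or 8 (log2 fold changes -0.34, -0.32 and -0.30) and without AAV-TuD 4, 9 or 10 (-0.30, -0.35 and -0.34), with adjusted p values up to 0.0718 in edgeR. With library size alone the log2 fold change was -0.12 (adjusted p = 0.667 by edgeR), which lies 0.35 below the median of all genes on that scale.

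The last step had a middle position. *Arg1* (chromosome 10, from 24915221 to 24927484, minus strand), the liver arginase that releases urea, had 903, 821, 708, 861 and 998 CPM in AAV-NC 1, 2, 6, 7 and 8. In AAV-TuD livers it had between 703 and 868 CPM, with a median of 755. Both groups spanned the same levels apart from AAV-NC 1 and 8, which were higher than all AAV-TuD livers. For *Arg1* the log2 fold change was -0.14 (SE 0.10, 95% interval -0.35 to 0.06, adjusted p = 0.369 by edgeR). Macrophages can also express *Arg1*. Of 10 Kupffer cell and macrophage markers tested, 6 were higher with AAV-TuD and none lower, against 7.24% and 4.33% of all genes tested. The summed level of these markers was between 131 and 188 CPM in AAV-NC and between 149 and 366 CPM in AAV-TuD livers. The part of macrophages in the *Arg1* reads was not tested.

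The ratio of 2 genes within 1 liver does not depend on how the libraries are scaled, and 5 ratios were compared. Reads of *Ass1* per read of *Asl* were higher in each AAV-TuD liver than in any AAV-NC liver. The log2 ratios were 2.59, 2.65, 2.67, 2.62 and 2.78 in AAV-NC 1, 2, 6, 7 and 8, and 3.08, 3.56, 2.91, 3.13, 3.20 and 3.15 in AAV-TuD 3, 4, 5, 9, 10 and 11. AAV-NC livers were close together, and AAV-TuD 4 was the highest of all. The difference was 0.51, from 2.66 ± 0.07 (SD, n = 5) to 3.17 ± 0.22 (SD, n = 6), or from 6.33 to 9.01 reads of *Ass1* per read of *Asl* as geometric means. By a two-sided exact permutation test p was 0.00433, the smallest that 5 against 6 livers allow, and 0.0216 after Benjamini-Hochberg adjustment over the 5 ratios. The difference lay between 0.43 and 0.56 with each liver left out in turn, and it was 0.43 without AAV-TuD 4. *Asl* was itself called lower from the same counts, so this ratio is not separate support for that call. The ratios were chosen with earlier results of these data known, and how many other pairs of genes separate the groups was not counted.

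**Figure D3:**
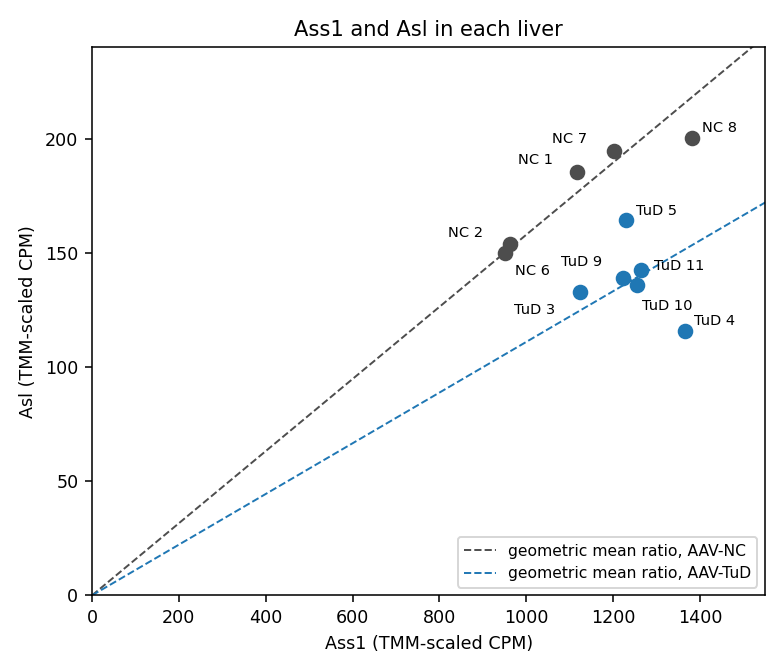
*Asl* against *Ass1* in each liver, both in TMM-scaled CPM on axes that start at 0. Grey points are the 5 AAV-NC and blue points the 6 AAV-TuD livers with their replicate numbers, and dashed lines are the geometric mean ratio of each group (6.33 and 9.01 reads of *Ass1* per read of *Asl*). All AAV-NC points lie above the line of the AAV-TuD ratio.

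The other ratios did not separate the groups. That of *Cps1* to *Otc* had a log2 difference of 0.0022 (1.84 ± 0.08, SD, n = 5, against 1.85 ± 0.09, SD, n = 6, exact permutation p = 0.965). *Otc* to its ornithine carrier *Slc25a15* had a difference of -0.04 (exact permutation p = 0.762). The ratio of *Cps1* to *Glul*, which sets the periportal route of ammonia disposal against the pericentral one, was 1.38 ± 0.61 (SD, n = 5) and 1.18 ± 0.22 (SD, n = 6) on the log2 scale (exact permutation p = 0.636). *Gls2* to *Glul*, the enzymes that release and fix ammonia, gave -4.24 ± 0.94 (SD, n = 5) and -4.57 ± 0.11 (SD, n = 6), with an exact permutation p of 0.593. After adjustment over the 5 ratios these p values were at least 0.952. A sixth ratio, with *Arg2*, was not analysed here.

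**Figure D4:**
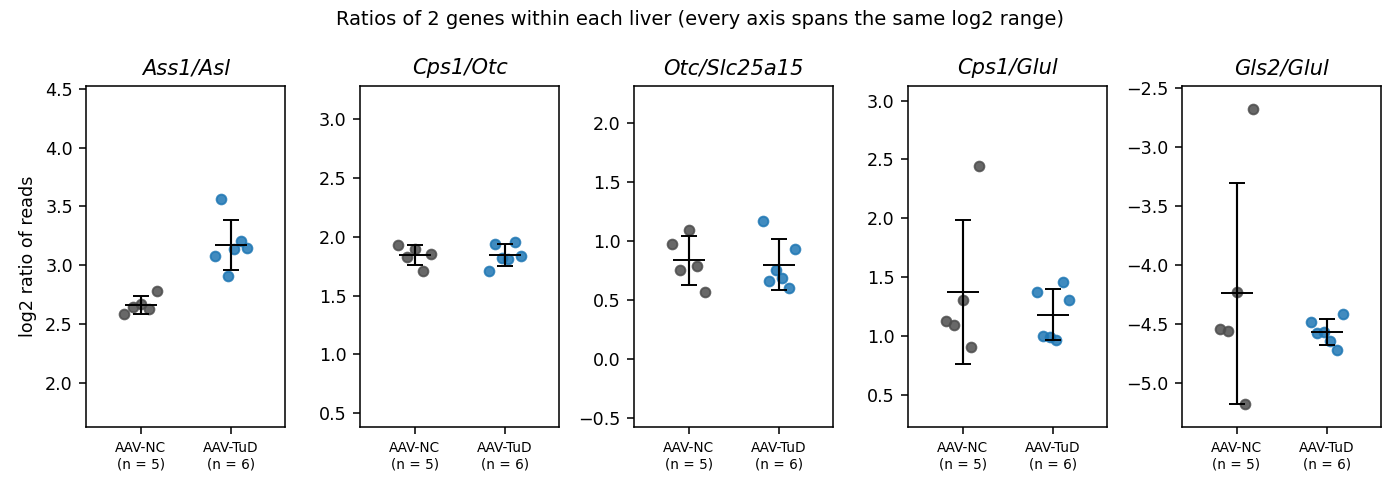
Log2 ratio of the reads of 2 genes in each liver, with 0.5 added to each count. Points are livers, with 5 AAV-NC in grey and 6 AAV-TuD in blue, bars are the mean ± SD, and each vertical axis spans the same log2 range. *Ass1* to *Asl* separates the groups (2.59 to 2.78 against 2.91 to 3.56), and 1 AAV-NC liver lies far above the others in both ratios to *Glul* (2.44 and -2.68).

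The liver AAV-NC 8 was at the end of the range for several genes. It had the highest *Ass1*, *Asl*, *Arg1*, *Slc25a15* and *Gls2* of all 11 livers. The margin was small for *Ass1* (1382 against 1365 CPM in AAV-TuD 4) and *Asl* (201 against 195 CPM in AAV-NC 7). *Cps1*, *Otc*, *Hal* and *Cdh1* were not highest in AAV-NC 8, which ranked 2, 3, 3 and 6 for them. *Glul* was lowest in AAV-NC 8, at 165 CPM against 361 to 469 CPM in the other AAV-NC and 313 to 407 CPM in the AAV-TuD livers. *Cyp2e1*, a pericentral cytochrome P450, was also lowest there, at 1080.4 CPM against 1408 CPM or more in all other livers. So was pericentral *Cyp1a2*, at 366 CPM. Other pericentral genes were not lowest there. *Oat* had 143 CPM against 69.4 in AAV-NC 6, *Slc1a2* 75.7 against 69.4 in AAV-NC 2, and *Rhbg* 2.92 against 2.21 in AAV-NC 6. Without AAV-NC 8 the log2 difference of the *Cps1* to *Glul* ratio turned from -0.19 to 0.07 and that of *Gls2* to *Glul* from -0.33 to 0.06. For *Slc25a15* the log2 fold change turned from -0.06 to 0.02, that of *Gls2* went from -0.25 to -0.09 and that of *Arg1* from -0.14 to -0.08.

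*Slc25a15* (chromosome 8, from 22375551 to 22398597, minus strand) had 123, 136, 112, 156 and 168 CPM in AAV-NC 1, 2, 6, 7 and 8. It had between 116 and 146 CPM with a median of 135 in the AAV-TuD livers, all within the values seen with AAV-NC. Its log2 fold change was -0.06 (SE 0.10, 95% interval -0.26 to 0.15, adjusted p = 0.775 by edgeR). *Nags*, which makes the N-acetylglutamate that CPS1 needs, had 27.7 ± 4.19 CPM (SD, n = 5) and 24.2 ± 2.52 CPM (SD, n = 6), with a log2 fold change of -0.19 (adjusted p = 0.262, edgeR). *Slc25a13*, the carrier that exports aspartate for ASS1, had 257 ± 23.6 (SD, n = 5) and 242 ± 14.3 CPM (SD, n = 6), with a log2 fold change of -0.09 (adjusted p = 0.505, edgeR). These belong to a list of 18 other genes of the cycle and its nitrogen supply, of which 16 were tested. None of the 16 was called by edgeR or by DESeq2, 1 had an unadjusted p under 0.05, and the median log2 fold change was -0.04.

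Neither of the periportal enzymes of amino acid breakdown passed the test. *Hal* (chromosome 10, from 93488768 to 93519304), the histidase that removes ammonia from histidine, had 310.2, 259.6, 236, 232 and 282 CPM in AAV-NC 1, 2, 6, 7 and 8. It had 181, 223, 233, 227, 219.6 and 294 CPM in AAV-TuD 3, 4, 5, 9, 10 and 11. Of these only AAV-TuD 5 and 11 reached the AAV-NC values, and AAV-TuD 3 had the lowest level of all. For *Hal* the log2 fold change was -0.20 (SE 0.11, 95% interval -0.43 to 0.03), and it did not pass the threshold (adjusted p = 0.26, edgeR). The later steps of histidine breakdown are encoded by *Uroc1*, *Amdhd1* and *Ftcd*, of which *Ftcd*, the formiminotransferase, was lower with AAV-TuD (412 ± 11.6 CPM, SD, n = 5, against 347 ± 28.7 CPM, SD, n = 6). It had a log2 fold change of -0.25 (adjusted p = 0.0364 by edgeR) and its groups did not overlap. *Amdhd1* lay in the other direction without passing the threshold (log2 fold change 0.22, adjusted p = 0.17 by edgeR), with 5 of 6 AAV-TuD livers higher than all of AAV-NC, and *Uroc1* was at -0.10 (adjusted p = 0.409 by edgeR). With each liver left out in turn *Ftcd* was between -0.27 and -0.21 and passed the threshold in 2 of 11 fits, those without AAV-TuD 3 and AAV-TuD 10.

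*Gls2* (chromosome 10, from 128194457 to 128210004), the liver glutaminase that feeds ammonia to the cycle, had 18.02, 16.1, 19.1, 12.9 and 25.7 CPM in AAV-NC 1, 2, 6, 7 and 8. In AAV-TuD livers it had between 11.8 and 17.0 CPM, with a median of 16.4. AAV-NC 8 was the highest and AAV-TuD 10 the lowest. A log2 fold change of -0.25 (SE 0.15, adjusted p = 0.314 by edgeR) had the widest 95% interval of the 9 genes, from -0.56 to 0.07. *Spryd4* overlaps exons of *Gls2* on the opposite strand and had 630 reads in all livers against 1853 for *Gls2*. The strand setting of the counting is not given in the sources used here, so reads of this pair cannot be told apart.

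Amino acid breakdown beyond these genes was followed in 5 lists with 48 genes tested. Of these, 2 (4.17%) were called as higher and 6 (12.5%) as lower, with a median log2 fold change of -0.10. Among all genes tested these shares were 7.24% and 4.33%, and in either direction 22.3% of the most abundant 10% of genes were called. The 2 higher genes were *Aldh7a1* of lysine breakdown (log2 fold change 0.22) and *Dbt* of branched-chain amino acid breakdown (0.22). The lower genes included *Sdsl*, which encodes a protein similar to serine dehydratase. It had 5.97, 7.55, 5.87, 5.51 and 15.2 CPM in AAV-NC 1, 2, 6, 7 and 8, and between 3.24 and 4.70 CPM in the AAV-TuD livers. The groups did not overlap, and AAV-NC 8 was far above the rest. *Sdsl* had a log2 fold change of -1.04 (SE 0.24, adjusted p = 0.0129 by edgeR) with all livers and -0.65 without AAV-NC 8 (adjusted p = 0.0175 by edgeR). *Gcsh* of the glycine cleavage system (-0.29), *Kynu* of tryptophan breakdown (-0.37), *Ahcy* (-0.32) and *Cbs* (-0.46) of methionine breakdown were also lower, besides *Ftcd*. *Cbs* was at 274 CPM in AAV-NC 8 and at 148 to 182 CPM in the other AAV-NC livers, and its log2 fold change without AAV-NC 8 was -0.28 (adjusted p = 0.0361 by edgeR). *Sdsl* and *Kynu* were called with each liver left out in turn, while *Gcsh* was not called without AAV-NC 1 (-0.26), *Cbs* without AAV-TuD 4, 9 or 10 (-0.43 to -0.45) and *Ahcy* without AAV-TuD 4 or 10 or AAV-NC 6 or 7 (-0.28 to -0.29). *Aldh7a1* was called in 3 and *Dbt* in 1 of the 11 fits that leave out a liver. With library size alone, of these genes only *Sdsl* was called (-0.84).

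*Cdh1* (chromosome 8, from 106603351 to 106670246) encodes E-cadherin, the adhesion molecule of epithelial cell contacts, which in the lobule is found on periportal hepatocytes and bile ducts. It had 60.5, 80.8, 82.5, 81.4 and 100.4 CPM in AAV-NC 1, 2, 6, 7 and 8, and 94.9, 109, 104, 111, 108 and 109.96 CPM in AAV-TuD 3, 4, 5, 9, 10 and 11. AAV-NC 8 exceeded AAV-TuD 3, and the other 5 AAV-TuD livers were above all AAV-NC livers. Mean expression rose from 81.1 ± 14.1 CPM (SD, n = 5) to 106 ± 6.00 CPM (SD, n = 6). This is a log2 fold change of 0.39 (SE 0.10, adjusted p = 0.0205 by edgeR), a change of 30.7% with a 95% interval from 12.8% to 51.5%. It was past the threshold in 11 of 11 fits that each left out 1 liver, with values from 0.30 without AAV-NC 1 to 0.48 without AAV-NC 8, and under 8 of 8 other settings.

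Markers of bile duct cells moved with *Cdh1*. Of 12 markers of cholangiocytes listed, 7 were tested and 5 of these (*Spp1*, *Prom1*, *Epcam*, *Sox9* and *Krt19*) were higher with AAV-TuD and none lower, by edgeR and by DESeq2. Their summed level was between 61.3 and 82.9 CPM in AAV-NC and between 93.4 and 134 CPM in AAV-TuD livers, without overlap. None of the 7 was at 0, and the lowest mean was that of *Epcam*, at 0.66 CPM with AAV-NC. What part of the *Cdh1* reads came from bile duct cells was not tested. Stellate cell markers were higher for 7 of 10 genes tested, and 1 of 10 sinusoidal endothelial markers was higher, with none lower in either. Among all genes tested, 7.24% were called as higher and 4.33% as lower in edgeR.

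Other zonated genes were counted in the same way. Of 14 other periportal genes, *Fbp1* of gluconeogenesis was higher (192 ± 31.9 CPM, SD, n = 5, against 292 ± 25.1 CPM, SD, n = 6), with a log2 fold change of 0.60 (adjusted p = 0.0021 by edgeR) and no overlap. *Cyp17a1* (log2 fold change -1.54, adjusted p = 0.0097 by edgeR) and *Igfbp2* (-0.36, adjusted p = 0.0488 by edgeR) were lower. *Cyp17a1* had 30.3 CPM in AAV-NC 8 and 5.42 to 12.8 CPM in the other AAV-NC livers, and it was still lower without that liver (-1.01). *Igfbp2* passed the threshold in only 3 of the 11 fits that leave out a liver, with values between -0.40 and -0.27. The periportal cytochrome *Cyp2f2* did not pass it (-0.19, adjusted p = 0.326 by edgeR), and the median of the list was -0.15. The calls in this list, 1 higher and 2 lower of 14, stand beside 7.24% higher and 4.33% lower among all genes tested. In the most abundant 10% of genes 22.3% were called in either direction.

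Of 17 pericentral genes, *Lhpp* and *Oat* were higher and none lower in edgeR, with a median of -0.01. In edgeR with TMM, 7.24% of all genes were higher and 4.33% lower. For this list DESeq2 gave 3 higher and 0 lower, limma-voom 3 higher and 1 lower, and library size alone 5 higher and 0 lower. The background differs between these settings. Over all genes DESeq2 made 1811 calls (58.5% of them higher), limma-voom 1643 (58.0%) and library size alone 1457 (95.1%), against 1543 (62.6%) in edgeR with TMM. *Oat* encodes the ornithine aminotransferase, which takes ornithine away from the cycle towards glutamate. It had 136, 119.96, 69.4, 149.8 and 143 CPM in AAV-NC 1, 2, 6, 7 and 8, and between 132 and 201 CPM in AAV-TuD livers, with a log2 fold change of 0.53 (adjusted p = 0.0417 by edgeR). Only AAV-TuD 3 was within the AAV-NC values. The call was made in 4 of the 11 fits that leave out a liver, with values from 0.38 without AAV-NC 6 to 0.61 without AAV-TuD 3. *Glul* had 360.02 ± 117 CPM (SD, n = 5) and 369.6 ± 41.7 CPM (SD, n = 6), with a log2 fold change of 0.04 (95% interval -0.36 to 0.44, adjusted p = 0.927 by edgeR), which was -0.14 without AAV-NC 8.

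Regulators of the cycle formed the last list, with 20 genes tested, 3 lower and none higher, and a median of -0.13. Among all genes tested, 4.33% were called as lower and 7.24% as higher. Of the most abundant 10% of genes 22.3% were called in either direction, with a median of -0.13. *Hnf4a*, the hepatocyte transcription factor, went from 154 ± 20.6 CPM (SD, n = 5) to 119 ± 10.7 CPM (SD, n = 6), with a log2 fold change of -0.38 (adjusted p = 0.015 by edgeR). *Fgfr4*, the receptor for the intestinal hormone FGF15, had a log2 fold change of -0.57 (adjusted p = 0.0088 by edgeR) and *Gcgr*, the glucagon receptor, of -0.27 (adjusted p = 0.031 by edgeR), both without overlap of the groups. *Hnf4a* and *Fgfr4* were called with each liver left out in turn and *Gcgr* in 3 of 11 such fits. None of the 3 was called with library size alone, where the values were -0.15, -0.35 and -0.05.

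**Figure D5:**
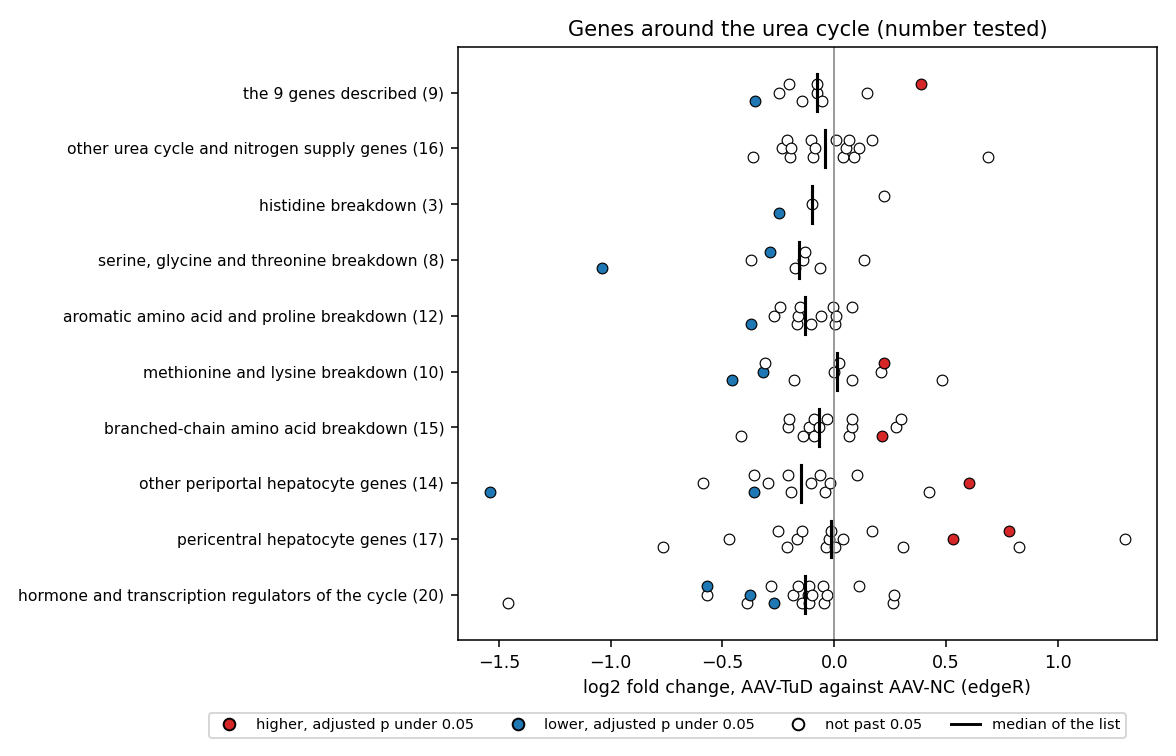
Log2 fold change of each tested gene of the lists, AAV-TuD against AAV-NC, from edgeR with TMM scaling. Points are genes, red or blue where the adjusted p was under 0.05, and black lines are the medians of the lists, whose numbers of genes are given in brackets. The medians lie between -0.16 and 0.01, and calls in both directions are few in each list.

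Likeness to the cycle was measured over the 11 livers as the Pearson correlation of log2 CPM with the mean of the 5 standardized enzyme levels. Among all tested genes outside the set, *Cpb2* (0.903), *Pccb* (0.89) and *Aven* (0.887) had the highest values, and none of them was called between the groups (log2 fold changes -0.21, -0.09 and -0.24). The 5 enzymes, which are part of that mean, were unequal among themselves. *Arg1* (0.84), *Asl* (0.83), *Otc* (0.752) and *Cps1* (0.715) followed it and *Ass1* much less (0.267). Outside the enzymes, *Hal* had 0.427, *Slc25a15* 0.4, *Gls2* 0.347 and *Cdh1* -0.36. The points of these correlations share libraries and scaling factors, and the values are a description only.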

How the data were processed

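Male mouse livers, 5 AAV-NC and 6 AAV-TuD, were grouped by the labels. Separate animals are implied by the paper, and p values measure the spread between these samples. After trimming with BBDuk and alignment to GRCm38 with STAR 2.5.3a, the authors obtained gene counts with Rsubread. The deposited values are these raw counts for 13669 genes, and how these genes were chosen is not given in the sources used here. The annotation, the strand setting and the treatment of multi-mapping reads are not given in the sources used here. Depth was 8148531 to 12043959 reads per liver, so that *Gls2*, at 103 reads or more, had the largest counting error of the 9 genes.

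Genes that exceeded 10 reads in 5 livers or more entered the quasi-likelihood test of edgeR 4.0.16 (R 4.3.3) with TMM factors and group as the sole term, and p values were adjusted over all genes by the Benjamini-Hochberg procedure, at a threshold of 0.05. Intervals are at 95%. Ratios of 2 genes, with 0.5 added to counts, were tested by two-sided exact permutation over 462 splits (SciPy 1.17.1). Scripts were tested on simulated data. Seed matches and positions came from GENCODE M21 transcripts of GRCm38, and similar transcripts (at least 85% identity over 200 bases) from BLAST 2.17.0.

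The genes, the lists and the tests were chosen with earlier results of these data known. Named genes are the members, the called genes of each list (up to 4 in each direction), *Glul*, *Oat*, *Nags*, *Slc25a13*, *Cyp2f2* and *Sdsl*, and the 3 genes most like the mean of the enzymes. *Uroc1* and *Amdhd1* are named outside this rule, to complete the list of histidine breakdown. Names of markers, *Cyp2e1*, *Cyp1a2*, *Slc1a2*, *Rhbg*, *Gm5424* and *Spryd4* were added after their values were seen. Alternatives were DESeq2 1.42.0, edgeR with the factors of DESeq2, library size alone, upper-quartile factors, removal of *Mup* genes, no filter, the voom method of limma 3.58.1 with quality weights, and omission of each liver in turn. Omission of the 3 livers with the largest *Mup* share was added after seeing the data. *Sds* and *Arg2* were not analysed here.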

Additional observations from a re-analysis of the deposited data

Results flagged for a closer look

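Among 76 groups of values, 5 had 1 liver far from the others. The values below are the distance of that liver to its nearest neighbour, as a share of the whole range of the group. Chance alone marks about 5% of such groups.

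AAV-NC 8 was the distant liver in 3 of them. It was far above the other AAV-NC livers for *Sdsl* (0.789), for *Cbs* (0.732) and for the ratio of *Cps1* to *Glul* (0.743). The same liver had the highest *Ass1*, *Asl*, *Arg1*, *Slc25a15* and *Gls2* and the lowest *Glul*, *Cyp2e1* and *Cyp1a2* of the 11. It was not highest for *Cps1*, *Otc*, *Hal* or *Cdh1* and not lowest for pericentral *Oat*, *Slc1a2* or *Rhbg*. In AAV-TuD livers, AAV-TuD 11 was the highest for *Kynu* (0.708, at 43.9 CPM) and AAV-TuD 3 the lowest for *Oat* (0.736, at 132 CPM).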

How the results depend on the processing

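The number of called genes in the table was 1543, between 1457 and 1811 under the other settings for all livers, and between 1012 (without AAV-TuD 4) and 1829 with 1 liver left out. With library size alone, the share of higher genes among the calls was 95.1%, and with TMM it was 62.6%. On that scale the log2 fold changes turned positive for *Cps1* (0.15), *Otc* (0.15), *Arg1* (0.073), *Hal* (0.028), *Slc25a15* (0.19), *Nags* (0.029), *Slc25a13* (0.16), *Cyp2f2* (0.034), *Cpb2* (0.016) and *Pccb* (0.14), and *Asl* was not called (-0.12). Without the 3 livers richest in *Mup* reads, *Slc25a15* was 0.031, and the *Ass1* to *Asl* ratio was 0.59 with an adjusted exact permutation p of 0.143, in a comparison of 4 against 4 livers that cannot pass the threshold after adjustment. With each liver left out in turn, *Asl* lay between -0.41 and -0.30 (called in 5 of 11 fits), *Slc25a15* between -0.12 and 0.023 and *Glul* between -0.14 and 0.15. The log2 ratios lay between -0.031 and 0.030 for *Cps1* to *Otc*, -0.11 and 0.029 for *Otc* to *Slc25a15*, -0.31 and 0.074 for *Cps1* to *Glul*, and -0.56 and 0.060 for *Gls2* to *Glul*. The causes were not tested. *Cdh1* kept its direction and its call under all settings, and the other members not named here kept their direction and stayed outside the threshold. For the named genes that are no members, 352 values under these settings kept direction and side of the threshold, 79 lost the call and 6 turned direction, and the counts of calls in the lists moved by over 1.5 times in 51 values and by less in 120. No paired analysis was possible because the groups share no replicate number.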
